A study of Homo sapiens with 6 samples.

Results

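Collagen genes were examined in A375, a human melanoma cell line, after loss of the kinase gene RIPK4. Members were all genes of the deposited count table whose symbol is COL, a number, A and a number, without antisense genes or scaffold copies. Of 20851 genes in the table, 34 met this rule, out of 44 collagen symbols in RefSeq, and the other 10, among them COL1A2, COL3A1, COL6A5, COL6A6 and COL9A1, were not analysed here. Poly(A)-enriched, strand-specific libraries were compared between A375 neg, the negative control (labelled as a GFP control, and a nontargeting guide RNA in the methods), and A375 RIPK4.KO, made with CRISPR/Cas9, with 3 libraries each. All RIPK4.KO libraries came from 1 clone (clone #1), so a property of that clone and loss of RIPK4 cannot be told apart. The replicates are described as biological, without the cultures being specified.

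Collagens are trimers of polypeptide chains wound into a triple helix, and most chains need particular partners. Fibrillar collagens (types I, II, III, V, XI, XXIV and XXVII) form or regulate banded fibrils. Type IV chains build the sheet-like network of basement membranes, and type VI chains form beaded microfilaments around cells. FACITs (fibril-associated collagens with interrupted triple helices) sit on fibril surfaces, whereas transmembrane collagens are anchored in the plasma membrane. Melanoma cells make part of their own matrix, and fibroblasts supply much of the rest in a tumour.

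Libraries held 21882863 to 26694140 counts assigned to genes, so a gene with 0 counts could still be present at up to 3 counts, or 0.112 to 0.137 CPM (counts scaled to a common total). These limits cover counting error only. Normalized counts are counts scaled by edgeR's TMM method to a common library size. A gene was called when its Benjamini-Hochberg adjusted p in edgeR's quasi-likelihood test, over the 14443 genes that passed the filter on low counts, was under 0.05 and its fold change was at least 1.5 either way. Log2 fold changes are RIPK4.KO over neg, each with its standard error (SE). Levels of different genes were compared only as CPM per kb of the longest GENCODE transcript. RIPK4 itself had 319, 339 and 383 normalized counts in neg and 45.9, 53.2 and 61.8 in RIPK4.KO, a log2 fold change of −2.69 (SE 0.17, adjusted p = 1.01e-05). The targeted gene thus had lower counts in every library labelled as knockout, although an edited gene can still be transcribed. RIPK4.KO replicate 2 stood apart from the others in its relation to transcript length. Each library's log2 CPM was taken as its deviation from the gene's mean in its group, over 12888 genes. This deviation changed by −0.055 per doubling of length in RIPK4.KO replicate 2. The slopes were 0.028 and 0.027 in RIPK4.KO replicates 1 and 3 and −0.010 to 0.014 in neg. Within a group the slopes cancel out by construction, so those of replicates 1 and 3 mirror that of replicate 2. Melanocytic, fibroblast and keratinocyte marker lists were read in the same libraries. SOX10, a neural crest and melanocyte transcription factor, had 9128 ± 359 (SD, n = 3) normalized counts in neg and 7962 ± 185 in RIPK4.KO, while the pigment gene TYRP1 had at most 8 raw counts in any library. The 6 fibroblast markers with a row summed to 10.2 to 12.1 CPM in neg and 10.1 to 11.98 CPM in RIPK4.KO.

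The regions next to the start sites of the genes on which the chain results turn are shown first. COL4A1 and COL4A2 lie head to head on chromosome 13, with 126 bases between their annotated starts. COL6A2, on chromosome 21, and COL6A3, on chromosome 2, encode chains of 1 collagen that moved in opposite directions, and 250 bases upstream of each start are given. RefSeq sequences on GRCh38.p14 were used, read 5′ to 3′ on the strand named. Capitals mark the CCAAT box (CCAAT), the GC box (GGGCGG), the TATA box (TATAAA) and the AP-1 site (TGANTCA), searched on both strands.
COL4A1 and COL4A2 interval, chr13:110307158-110307283, plus strand: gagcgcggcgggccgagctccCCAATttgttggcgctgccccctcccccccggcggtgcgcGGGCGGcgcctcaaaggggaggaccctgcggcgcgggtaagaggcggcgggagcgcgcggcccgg
COL6A2, chr21:46097862-46098111, plus strand: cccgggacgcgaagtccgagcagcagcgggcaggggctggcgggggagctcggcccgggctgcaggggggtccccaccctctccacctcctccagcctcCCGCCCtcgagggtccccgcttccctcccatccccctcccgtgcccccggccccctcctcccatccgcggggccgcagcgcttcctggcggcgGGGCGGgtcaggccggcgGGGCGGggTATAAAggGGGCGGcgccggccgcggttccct
COL6A3, chr2:237414165-237414414, minus strand: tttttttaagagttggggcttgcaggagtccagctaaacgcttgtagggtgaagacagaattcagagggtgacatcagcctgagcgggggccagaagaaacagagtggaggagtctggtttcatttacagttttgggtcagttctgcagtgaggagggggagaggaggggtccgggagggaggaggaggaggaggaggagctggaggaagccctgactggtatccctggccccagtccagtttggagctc

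The COL4A1 and COL4A2 interval held 1 CCAAT box and 1 GC box. The last 126 bases before the start held a CCAAT box in 21.1% and a GC box in 34.6% of the 35116 RefSeq entries. The COL6A2 window held 4 GC boxes and 1 TATA box, and the COL6A3 window held none of the 4 motifs. Over windows of 250 bases, 32% of entries held a CCAAT box, 42.6% a GC box, 10.7% a TATA box and 6.57% an AP-1 site. A match describes the letters of the window, and a missing match says only that these letters were not there. Of the 34 members, 26 had an entry in this table.

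Most of the collagen mRNA of these cells came from COL4A2, COL9A3, COL4A1, COL6A1, COL6A2 and COL5A2, which together took 91.2% of the summed CPM per kb of the 34 genes. COL4A2 alone took 30.3%. The summed level of all collagen genes was 282, 272 and 310 CPM per kb in neg and 342, 343 and 363 CPM per kb in RIPK4.KO. Every RIPK4.KO library was thus above every neg library, with a ratio of means of 1.21. The make-up by type differed as well. Basement membrane chains were 40.9% of the sum in neg and 47.0% in RIPK4.KO, and type VI chains were 19.2% and 26.0%. FACITs were 26.6% and 15.1%, and fibrillar chains were 9.73% and 9.31%. These sums are descriptions without a test. In RNA of whole cultures, fewer cells expressing a gene and less of its RNA per cell cannot be told apart.

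**Figure D1:**
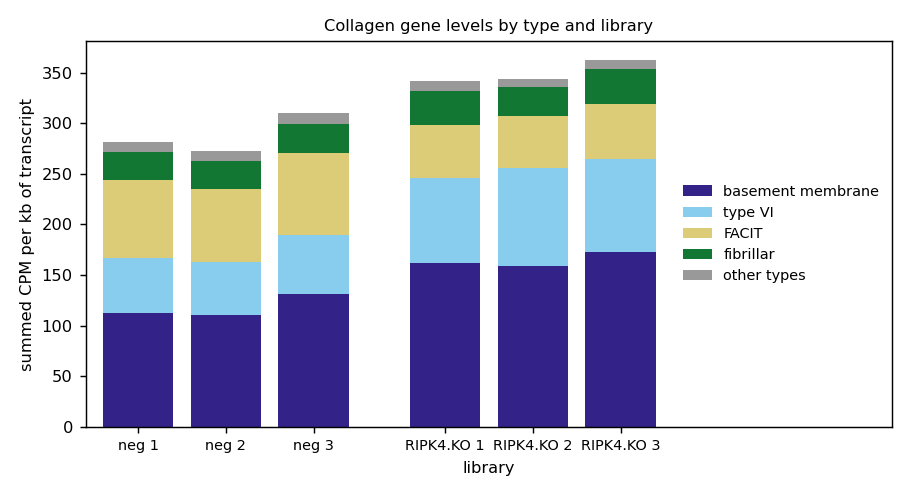
Summed CPM per kb of transcript (vertical axis, from 0) of the 34 collagen genes in each of the 6 libraries (horizontal axis), stacked by collagen type. The 3 RIPK4.KO bars are taller than the 3 neg bars, with a larger basement membrane and type VI layer and a smaller FACIT layer.

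Of the 34 genes, 24 passed the filter on low counts. Of these, 4 were called higher in RIPK4.KO (COL6A1, COL6A2, COL8A1 and COL22A1) and 6 lower (COL6A3, COL12A1, COL13A1, COL16A1, COL4A5 and COL19A1). Together they are 41.7% of the collagen genes tested, beside 9.04% of all genes tested (4.39% higher and 4.65% lower). With the adjusted p alone, 15 collagen genes passed (8 higher and 7 lower), beside 16.6% of all genes. The groups did not overlap for 16 of the 24, beside 36.5% of all genes. The median log2 fold change was −0.30 over the collagen genes and −0.00466 over all genes, with values from −1.63 to 1.59 among the collagen genes. Without RIPK4.KO replicate 2, 11 were called, and with the length trend removed from each library 10 were called.

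**Figure D2:**
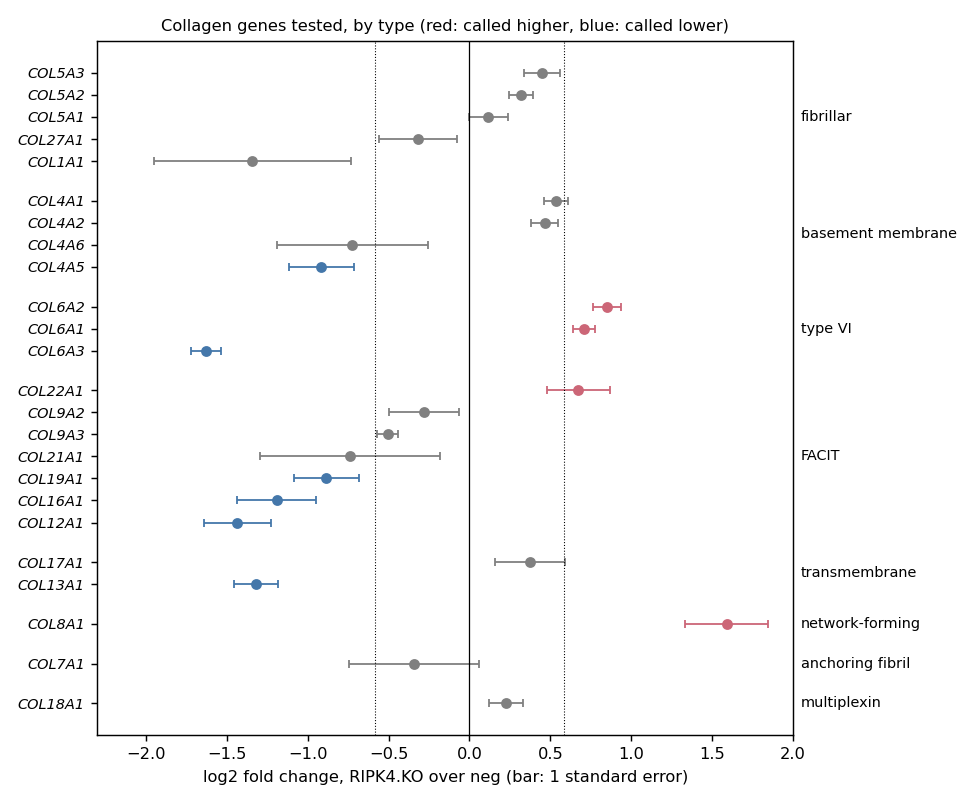
Log2 fold change of RIPK4.KO over neg (horizontal axis, bar 1 SE) for the 24 collagen genes tested, grouped by type (red called higher, blue called lower, grey not called). Dotted lines mark 1.5-fold either way, and type VI holds genes on both sides, with COL6A2 at 0.85 and COL6A3 at −1.63.

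All 3 type VI chains tested were called, beside 9.04% of all genes tested, and not in the same direction. COL6A1 and COL6A2, which encode the short alpha1 and alpha2 chains, were higher in RIPK4.KO, and COL6A3, which encodes the long alpha3 chain, was lower. COL6A1 had 3050, 2987 and 3239 normalized counts in neg and 4676, 5199 and 5273 in RIPK4.KO, 1.63-fold higher (log2 fold change 0.71, SE 0.07, adjusted p = 0.000146). COL6A2 had 1868, 1860 and 2145 in neg and 3249, 3867 and 3475 in RIPK4.KO, 1.80-fold higher (log2 fold change 0.85, SE 0.09, adjusted p = 0.000185). COL6A3 had 692, 675 and 697 in neg and 238, 207 and 222 in RIPK4.KO, 3.09-fold lower (log2 fold change −1.63, SE 0.09, adjusted p = 6.4e-06). No library of one group reached the range of the other for any of the 3 chains, beside 36.5% of all genes tested without overlap. In spheroids of the same clone, the paper reports COL6A3 mRNA as increased by quantitative PCR, the opposite direction. That assay also gave COL1A1 and COL4A2 as increased and COL12A1, COL16A1, COL5A1 and COL7A1 as reduced. Here COL4A2 was higher but under 1.5-fold, and COL12A1 and COL16A1 were called lower. COL1A1, COL5A1 and COL7A1 were not called, and COL1A1 had lower counts in RIPK4.KO. The libraries used here are not described as spheroids.

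Per length, the mRNAs of the 3 chains were far from equal in both groups. The classical type VI monomer takes up the alpha1, alpha2 and alpha3 chains in equal numbers, but chain protein was not measured here. Of the summed CPM per kb of the 3, COL6A3 took 4.86%, 4.81% and 4.47% in neg and 1.07%, 0.814% and 0.91% in RIPK4.KO. COL6A1 took 53.7% ± 0.9 (SD, n = 3) and 53.4% ± 1.5, and COL6A2 took 41.6% ± 1.1 and 45.7% ± 1.5. COL6A3 was thus the scarcest of the 3 in all 6 libraries. The ratio of COL6A3 to COL6A1 was 0.0878 ± 0.003 (SD, n = 3) in neg and 0.0175 ± 0.002 in RIPK4.KO, which is 5.06-fold lower. The ratio of COL6A3 to COL6A2 was 5.59-fold lower. Both had p = 0.1 in an exact two-sided permutation test over libraries, the smallest that 3 against 3 allows, and an adjusted p of 0.18 over the 9 chain pairs tested. COL6A2 to COL6A1 was 0.774 ± 0.032 in neg and 0.856 ± 0.052 in RIPK4.KO (n = 3 each), and these libraries overlapped (log2 difference 0.14, SE 0.06, exact permutation p = 0.2). The ratio levels depend on the length used, and with all exons of each gene merged COL6A3 to COL6A1 was 0.0606 in neg, while the fold difference between groups does not depend on it.

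COL6A1 and COL6A2 lie on chromosome 21, 4.21 and 4.33 Mb beyond RIPK4. Among the other 51 genes tested on that side of RIPK4, the median log2 fold change was 0.02. Of these, 1 was called higher and 2 lower, beside 9.04% of all genes tested. COL18A1, located between RIPK4 and COL6A1, was not called. The 93 genes on the centromere side had a median of −0.12, with 3 called higher and 5 called lower.

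**Figure D3:**
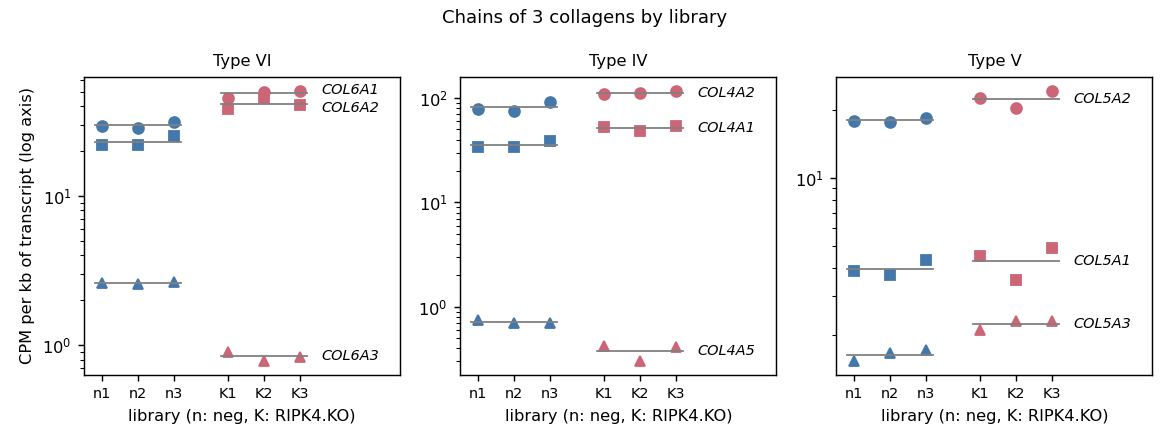
CPM per kb of transcript (vertical log axis) of chains of types VI, IV and V in each library (blue neg, red RIPK4.KO; grey lines are group means). COL6A3 falls away from COL6A1 and COL6A2 in RIPK4.KO, whereas COL4A1 and COL4A2 keep a similar distance.

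Of 4 basement membrane chains tested, 1 was called, beside 9.04% of all genes tested. COL4A1 and COL4A2, whose products form the widespread type IV trimer of 2 alpha1 chains and 1 alpha2 chain, passed the adjusted p but were under 1.5-fold, and COL4A5, a chain of more restricted networks, was called lower. COL4A1 had 5530, 5537 and 6299 normalized counts in neg and 8536, 7817 and 8808 in RIPK4.KO, 1.45-fold higher (log2 fold change 0.53, SE 0.08, adjusted p = 0.00132). COL4A2 had 12369, 11936 and 14506 in neg and 17268, 17600 and 18713 in RIPK4.KO, 1.38-fold higher (log2 fold change 0.47, SE 0.08, adjusted p = 0.00464). In both genes the lowest RIPK4.KO library was above the highest neg library, while the groups did not overlap for 36.5% of all genes tested. COL4A1 was just inside the call without RIPK4.KO replicate 2 (1.502-fold) or without neg replicate 3 (1.52-fold).

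COL4A2 to COL4A1 was 2.27 ± 0.08 (SD, n = 3) per length in neg and 2.17 ± 0.12 in RIPK4.KO. The libraries overlapped (log2 difference −0.07, SE 0.05, exact permutation p = 0.3), so that no shift between these neighbouring genes was detected at this spread. COL4A5 had 120.0, 112 and 111 normalized counts in neg and 67.8, 48.0 and 65.9 in RIPK4.KO, 1.89-fold lower (log2 fold change −0.92, SE 0.20, adjusted p = 0.0132). The groups stood apart, and COL4A5 to COL4A1 was 2.77-fold lower (exact permutation p = 0.1, adjusted p = 0.18). COL4A6, which faces COL4A5 on chromosome X with 379 bases between them, had 8 to 29 raw counts in every library and was not called (log2 fold change −0.72, SE 0.47, adjusted p = 0.342, and −0.36 without neg replicate 2). COL4A6 to COL4A5 did not differ beyond its spread (log2 difference 0.28, SE 0.48, exact permutation p = 0.8). COL4A3 and COL4A4, the chains of the glomerular network, had at most 7 raw counts in a library and were not tested.

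Of 7 FACITs tested, 3 were called lower and 1 higher, beside 4.65% and 4.39% of all genes tested. COL12A1, a large FACIT found on type I collagen fibrils, had 658, 656 and 745 normalized counts in neg and 320.3, 161 and 281 in RIPK4.KO, 2.70-fold lower (log2 fold change −1.43, SE 0.21, adjusted p = 0.00162). COL16A1 had 299, 306 and 265 in neg and 173, 80.4 and 128 in RIPK4.KO, 2.29-fold lower (log2 fold change −1.19, SE 0.24, adjusted p = 0.00953). COL19A1 had 237, 210.0 and 275 in neg and 149.7, 96.0 and 145 in RIPK4.KO, 1.85-fold lower (log2 fold change −0.88, SE 0.20, adjusted p = 0.0154). RIPK4.KO replicate 2 was the lowest library for each of these genes. Without it they were 2.28-fold, 1.93-fold and 1.63-fold lower and still called.

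COL9A3, a chain of the cartilage FACIT type IX and second in level per length over the mean of all 6 libraries, had 4262, 3944 and 4440 normalized counts in neg and 2888, 2986 and 3038 in RIPK4.KO. It passed the adjusted p but was 1.42-fold lower, short of the fold limit (log2 fold change −0.50, SE 0.06, adjusted p = 0.000698). Its partner COL9A2 had 59.0, 70.0 and 76.8 in neg and 49.2, 55.3 and 64.9 in RIPK4.KO, with overlapping groups (log2 fold change −0.28, SE 0.22, adjusted p = 0.435). COL9A3 exceeded COL9A2 per length 71.8-fold in neg and 61.5-fold in RIPK4.KO, a difference within the spread (log2 difference −0.22, SE 0.15, exact permutation p = 0.3). COL22A1, a FACIT of tissue junctions such as that of muscle and tendon, was the FACIT called higher. It had 80.0, 78.3 and 86.3 normalized counts in neg and 149, 103 and 138 in RIPK4.KO, 1.59-fold higher (log2 fold change 0.67, SE 0.19, adjusted p = 0.0449). That call was lost when any library other than RIPK4.KO replicate 2 was left out (adjusted p up to 0.134). COL21A1 had 6 to 28 raw counts and was not called (log2 fold change −0.74, SE 0.56, adjusted p = 0.421). Without neg replicate 3, which had the 28 counts, its log2 fold change was −0.0793.

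Fibrillar collagens were led by the type V chains, which regulate the diameter of fibrils. None of the 5 tested was called, beside 9.04% of all genes tested. COL5A2 had 3108, 3078 and 3201 normalized counts in neg and 3938, 3544 and 4238 in RIPK4.KO (1.25-fold, log2 fold change 0.32, SE 0.07, adjusted p = 0.0167). COL5A3 had 233, 253 and 261 in neg and 319, 351 and 351 in RIPK4.KO (1.37-fold, log2 fold change 0.45, SE 0.11, adjusted p = 0.0236). Both were higher in every RIPK4.KO library, while 36.5% of all genes tested had groups without overlap. Both passed the adjusted p without reaching the fold limit. Without neg replicate 1, 2 or 3 or RIPK4.KO replicate 3, neither passed it (adjusted p 0.0513 to 0.0775 for COL5A2 and 0.0518 to 0.0815 for COL5A3). COL5A1 had 802, 768 and 899 in neg and 935, 732 and 1011 in RIPK4.KO, with overlapping groups (log2 fold change 0.12, SE 0.12, adjusted p = 0.565).

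Type V protein, which was not measured here, commonly contains 2 alpha1 chains and 1 alpha2 chain. Per length, COL5A2 mRNA exceeded COL5A1 mRNA 4.56-fold ± 0.27 (SD, n = 3) in neg and 5.28-fold ± 0.44 in RIPK4.KO. That ratio was higher in every RIPK4.KO library (log2 difference 0.21, SE 0.09, exact permutation p = 0.1, adjusted p = 0.18), and the difference was 0.14 without RIPK4.KO replicate 2 (exact permutation p = 0.2). COL5A3 to COL5A1 was 0.416 ± 0.031 and 0.534 ± 0.107 (n = 3 each, log2 difference 0.34, SE 0.17, exact permutation p = 0.1, adjusted p = 0.18). RIPK4.KO replicate 2 had a ratio of 0.658, against 0.469 and 0.476 in replicates 1 and 3, and without it the log2 difference was 0.18 (exact permutation p = 0.2). COL1A1, the main chain of type I collagen, had 20, 24 and 27 raw counts in neg and 14, 10 and 1 in RIPK4.KO. The groups stood apart, but the gene was not called (log2 fold change −1.34, SE 0.61, adjusted p = 0.177, and −0.81 without RIPK4.KO replicate 3). In spheroids of the same clone, the paper reports COL1A1 mRNA as increased by quantitative PCR. COL27A1, a cartilage-associated fibrillar collagen, had 870, 794 and 743 normalized counts in neg and 896, 384 and 654 in RIPK4.KO (log2 fold change −0.32, SE 0.24, adjusted p = 0.428). Without RIPK4.KO replicate 2 its log2 fold change was −0.0474. COL2A1, COL11A1 and COL24A1 had at most 12 raw counts in any library and were not tested.

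Among transmembrane collagens, COL13A1, a component of cell adhesion sites and of the neuromuscular junction, was called lower. It had 329, 368 and 371 normalized counts in neg and 162, 139 and 128 in RIPK4.KO, 2.49-fold lower with no overlap (log2 fold change −1.32, SE 0.14, adjusted p = 0.000219). COL17A1, the hemidesmosome collagen of basal keratinocytes, had 68.0, 77.4 and 105 in neg and 114, 117 and 94.3 in RIPK4.KO (log2 fold change 0.37, SE 0.22, adjusted p = 0.289). Its groups overlapped. COL25A1 had 0 raw counts in each neg library and 1, 0 and 3 in RIPK4.KO, so that no fold is given.

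The network-forming COL8A1, a short-chain collagen of vessel walls and of the corneal basement membrane, had the largest increase among the collagen genes tested. It had 39.0, 25.8 and 34.1 normalized counts in neg and 121, 99.2 and 78.1 in RIPK4.KO, 3.01-fold higher with no overlap (log2 fold change 1.59, SE 0.26, adjusted p = 0.00279). Its partner COL8A2 had at most 7 raw counts and was not tested. COL7A1, the anchoring fibril collagen that fastens the epidermal basement membrane to the dermis, had 217, 185 and 153 normalized counts in neg and 211, 53.2 and 173 in RIPK4.KO (log2 fold change −0.34, SE 0.40, adjusted p = 0.617). Its direction rested on RIPK4.KO replicate 2, without which the log2 fold change was 0.06. COL18A1, the source of endostatin, had 674, 596 and 713 in neg and 829.6, 675 and 811 in RIPK4.KO (log2 fold change 0.22, SE 0.10, adjusted p = 0.186, and 0.32 with adjusted p = 0.0279 without RIPK4.KO replicate 2). It shares 16.4% of its exon bases with SLC19A1 on the opposite strand, and whether counting used the strand is not given in the sources used here. Its relative COL15A1 had 10, 8 and 3 raw counts in neg and 1, 2 and 0 in RIPK4.KO, below the filter.

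**Figure D4:**
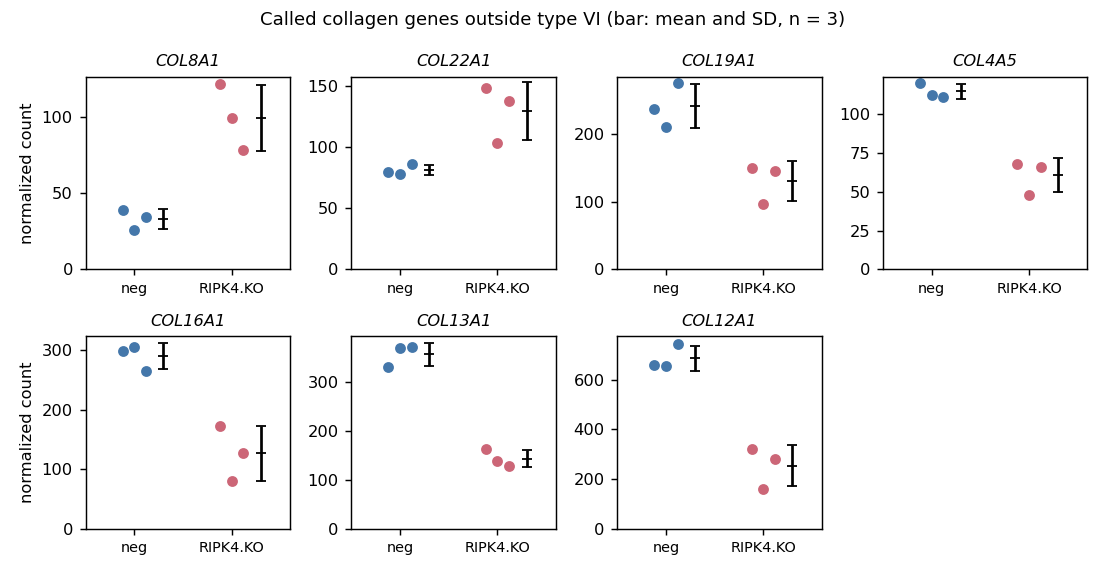
Normalized counts (vertical axes, each from 0) in neg (blue) and RIPK4.KO (red) libraries for the 7 called genes outside type VI, with mean and SD (n = 3). The groups do not overlap in any panel, beside 36.5% of all genes tested. For COL12A1, COL16A1 and COL19A1, 1 RIPK4.KO library lies low.

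The 10 members under the filter had 0 to 12 raw counts per library, and 6 of them had 0 in at least 1 library. Besides those named, they include COL20A1 with up to 2 and COL26A1 with up to 5 raw counts.

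Several members were low in RIPK4.KO replicate 2. Of the 21 collagen genes whose counts averaged at least 50, 5 were at least 1.5-fold lower there than in the mean of replicates 1 and 3 (COL7A1, COL27A1, COL12A1, COL16A1 and COL19A1), 23.8% beside 4.78% of the 11685 genes at that depth. Over the 24 collagen genes tested, the Spearman correlation of this deviation with transcript length was −0.50, a description over genes that share the same 3 libraries. The 5 low genes had transcripts of 5736 bases (COL16A1) to 11723 bases (COL12A1). COL6A3, with a transcript of 10749 bases, deviated by only −0.16. Its log2 fold change without the library was −1.58. The part of length in the other results was not tested beyond the removal of the length trend and of the library.

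**Figure D5:**
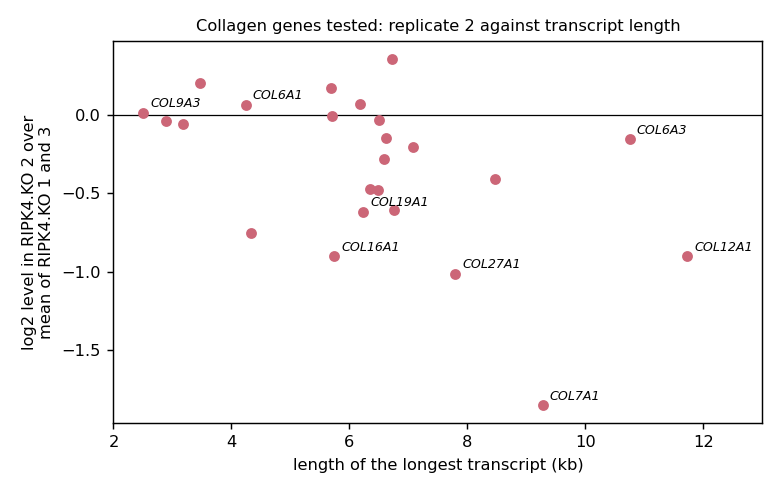
Log2 level in RIPK4.KO replicate 2 over the mean of replicates 1 and 3 (vertical axis) against the length of the longest transcript in kb (horizontal axis) for the 24 collagen genes tested. COL7A1 lies lowest at −1.85, and COL6A3, one of the longest, lies near 0.

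Genes that fold, modify, cleave, crosslink and bind collagen were read from lists of the pathway. Of 19 folding and modification genes tested, 1 was called higher and 1 lower, beside 9.04% of all genes. COLGALT2, which adds galactose to collagen hydroxylysine, had 29.2 ± 6.5 (SD, n = 3) normalized counts in neg and 65.2 ± 7.2 in RIPK4.KO (log2 fold change 1.15, SE 0.25, adjusted p = 0.0137). P4HA2, a catalytic subunit of collagen prolyl 4-hydroxylase, had 932 ± 15 and 603 ± 49 (log2 fold change −0.63, SE 0.08, adjusted p = 0.000691). The median log2 fold change of this list was −0.19. By the adjusted p alone 6 of the list passed, beside 16.6% of all genes. SERPINH1, P4HA1, P4HA2, P3H1 and CRTAP were lower and COLGALT2 was higher.

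Of 8 cleavage and crosslinking genes tested, 1 was called higher and 1 lower, beside 9.04% of all genes tested. Both were lysyl oxidase-like enzymes that crosslink collagen. LOXL2 had 3813 ± 50 (SD, n = 3) normalized counts in neg and 6095 ± 640 in RIPK4.KO (log2 fold change 0.68, SE 0.08, adjusted p = 0.000425). LOXL4 had 2593 ± 67 and 993 ± 42 (log2 fold change −1.38, SE 0.06, adjusted p = 1.55e-06). The list had a median of −0.06. By the adjusted p alone 5 of the list passed, beside 16.6% of all genes. PCOLCE2, ADAMTS3 and LOXL2 were higher, and LOXL3 and LOXL4 were lower.

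Of 11 receptor and uptake genes tested, 2 were called higher and 1 lower, beside 9.04% of all genes tested. Their median log2 fold change was 0.01. By the adjusted p alone 6 passed, beside 16.6% of all genes. ANTXR2, DDR2 and CD44 were higher, and ITGA1, ITGA2 and CSPG4 were lower. ANTXR2, a cell surface receptor that takes up type VI collagen, had 445 ± 19 (SD, n = 3) normalized counts in neg and 806 ± 8 in RIPK4.KO (log2 fold change 0.86, SE 0.07, adjusted p = 7.75e-05). DDR2, a receptor tyrosine kinase for fibrillar collagens, had 1631 ± 15 and 2535 ± 103 (log2 fold change 0.64, SE 0.06, adjusted p = 0.000111). ITGA1, the alpha1 subunit of an integrin that binds type IV collagen, had 3304 ± 317 and 1596 ± 174 (log2 fold change −1.05, SE 0.10, adjusted p = 0.000115). None of the 3 fibril-associated proteoglycan genes tested was called.

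Marker lists of 3 cell types were read beside the collagen genes. Of the 4 fibroblast markers tested none was called, and of 4 melanocytic markers 1 was called lower (S100B, log2 fold change −0.89, SE 0.24, adjusted p = 0.036). The melanocytic list summed to 385 to 416 CPM in neg and 332 to 349 CPM in RIPK4.KO, and most of that sum was SOX10. MITF had 471 ± 57 (SD, n = 3) normalized counts in neg and 346 ± 41 in RIPK4.KO. It passed the adjusted p but was under 1.5-fold (log2 fold change −0.44, SE 0.13, adjusted p = 0.0449). PMEL had 3 to 22 raw counts and was not called, and MLANA, TYR and DCT had no row. Of 3 keratinocyte markers tested 1 was called lower, KRT14, with 499 ± 53 (SD, n = 3) normalized counts in neg and 149 ± 16 in RIPK4.KO (log2 fold change −1.75, SE 0.13, adjusted p = 3.46e-05). KRT10 had 1302 ± 102 and 1297 ± 151 (log2 fold change −0.0055, SE 0.10, adjusted p = 0.976). KRT15 was not called (log2 fold change −0.41, SE 0.17, adjusted p = 0.145), and KRT5 had 2 to 11 raw counts. The keratinocyte list summed to 78.8 to 81.8 CPM in neg and 57.8 to 71.3 CPM in RIPK4.KO, and most of that sum was KRT10. Of all genes tested, 9.04% were called (4.65% lower). The part of these markers in the collagen results was not tested.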

How the data were processed

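Raw counts per gene in 6 A375 libraries were deposited by the authors as whole numbers without normalization. The submitters' processing notes name cutadapt, FastQC, HISAT2, HTSeq, DESeq2 and the GRCh38.p13 build, and no versions are given in the sources used here. The table's normalized counts and the authors' own comparison columns (fold changes, test statistics and p-values) were not used. Samples were grouped by title. The test was edgeR 4.0.16's quasi-likelihood test, run in R 4.3.3 after TMM scaling and filterByExpr, with p-values adjusted by Benjamini and Hochberg's method over 14443 genes. Transcript lengths came from GENCODE v29 on GRCh38, coordinates and upstream sequences from RefSeq GRCh38.p14. For 32 of 34 members the table's first exon overlapped RefSeq's gene bounds. Chain ratios were tested by exact two-sided permutation over libraries for the 9 pairs with a mean of at least 10 counts in both chains. All members were named, and from each list up to 2 called genes that rose most and 2 that fell most. SLC19A1 and the list genes that were not called, among them SOX10 and TYRP1, were named after their values were seen. Members and lists were chosen with earlier results of these data known. P-values measure the spread between these libraries. Alternatives were DESeq2 1.42.0, its size factors, other filters and fold limits, a replicate block, removal of the length trend and each library left out; merged exon length was added after seeing the data. The edgeR and DESeq2 fits were also run on simulated counts with known fold changes. Those counts had the same spread setting for every gene and no length trend or replicate effect. They therefore cannot check the removal of the length trend or the replicate block.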

Additional observations from a re-analysis of the deposited data

How the results depend on the processing

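With TMM or DESeq2's size factors, with DESeq2's test, with only genes averaging 50 or more counts and with the length trend removed, 10 collagen genes were called each time, and 9 without a filter on low counts. Leaving out 1 library gave 9 to 11 calls (3 to 5 higher, 5 to 6 lower). A fold limit of 2 left 5 called, 1 of them higher, and the adjusted p alone gave 15, of which 8 were higher. The number of pathway genes called was 7, and 6 to 9 over the alternatives. COL22A1 lost its call without the filter (adjusted p = 0.0607), with a replicate block (adjusted p = 0.0535) and without any 1 library other than RIPK4.KO replicate 2, and COL19A1 lost it without neg replicate 3 (adjusted p = 0.0639). The cause was not tested. The log2 fold change of COL7A1 was −0.7023 to 0.0588 with 1 library left out, and above 0 without RIPK4.KO replicate 2. The log2 difference of COL4A6 to COL4A5 lay between −0.1464 and 0.6098 with 1 library left out, and turned below 0 without neg replicate 1, which has 10 COL4A6 counts. No other chain ratio changed sign. The labels number the replicates 1 to 3 in both groups, but deviations of same-numbered libraries correlated at 0.082, 0.036 and −0.012, so the numbers were not taken as pairs. With the replicate block, 9 collagen genes were called, 3 higher and 6 lower, and sign flips of the numbered pairs gave the COL6A3 to COL6A1 ratio an exact permutation p of 0.25, the smallest that 3 pairs allow. Genes with few counts, such as COL1A1 and COL4A6, are limited by depth.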
